A study of Mus musculus with 2 samples.

Results

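The genes of odorant signal transduction were placed on the chromatin boundary map of mouse olfactory sensory neurons. The genes were Omp, Gnal, Gng13, Gnb1, Adcy3, Cnga2, Cnga4, Cngb1, Ano2 and Stoml3. They were chosen by their function, with earlier results of these data known, and the rule used no value of the map. All 10 were found in the GENCODE annotation of the mouse genome build GRCm38, among 21755 protein-coding genes on chromosomes 1 to 19 and X. They lay on 9 chromosomes, 9 genes on autosomes and Cnga2 on the X.

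The map came from in situ Hi-C, a method that ligates neighbouring DNA ends in fixed nuclei and reads the joined pairs. There was 1 group, of 2 biological replicates with 170000 and 220000 cells. The cells were mature sensory neurons of the olfactory epithelium in which the odorant receptor gene Olfr1507 (MOR28) is the active one. They were sorted by fluorescence from mixed-sex adult MOR28-GFP mice, strain 129P2/OlaHsd. The labels list no treatment, and there was no other cell type or condition. The authors combined both replicates before they called boundaries, so no value here has a replicate error, its depth is unknown, and the genes are described without a test. The map holds no expression values, so the labelled cell type was not checked against its markers.

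In these neurons an odorant receptor on the cilia activates the G protein Golf, whose alpha subunit is the product of Gnal, and Golf activates adenylyl cyclase type III, the product of Adcy3. Cyclic AMP opens a cation channel built from the products of Cnga2, Cnga4 and Cngb1, and the entering calcium opens the chloride channel encoded by Ano2, which amplifies the current. A boundary is a stretch of DNA across which few contacts pass, so that promoters and regulatory elements on its opposite sides touch less often than those on the same side.

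The list gave 7367 boundaries of 5000 bp each, with a strength that is the authors' own score. Its scale was not given in the sources used here. It ran from 0.20 to 4.26 with a median of 0.563, and boundaries of 0.5 and above were classed as strong. The boundaries parted the chromosomes into 7347 intervals with a median length of 265 kb, measured from midpoint to midpoint. As transcription start site (TSS) served the 5' end of each gene model, and "upstream" and "downstream" follow its direction of transcription.

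The promoters of Gnb1 and Adcy3 were rich in the dinucleotide CpG, and those of the other 6 genes with a known promoter sequence were poorer in it. CpG-rich promoters are frequent at widely expressed vertebrate genes, and CpG-poor ones at genes of single tissues. The lines show the 250 bases before the RefSeq start of 3 genes, 5' to 3' on build GRCm38.p6, with each CpG in capitals. They were chosen as the gene at a boundary (Gng13), the gene with the fewest CpGs (Cnga2) and a CpG-rich gene (Gnb1).
Gng13 promoter, chr17:25716922-25717171, forward strand: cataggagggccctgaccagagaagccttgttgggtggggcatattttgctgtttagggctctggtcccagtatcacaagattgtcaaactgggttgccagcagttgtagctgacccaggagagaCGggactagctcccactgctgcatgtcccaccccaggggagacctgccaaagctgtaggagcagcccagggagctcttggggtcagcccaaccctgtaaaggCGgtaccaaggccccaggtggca
Cnga2 promoter, chrX:71991599-71991848, forward strand: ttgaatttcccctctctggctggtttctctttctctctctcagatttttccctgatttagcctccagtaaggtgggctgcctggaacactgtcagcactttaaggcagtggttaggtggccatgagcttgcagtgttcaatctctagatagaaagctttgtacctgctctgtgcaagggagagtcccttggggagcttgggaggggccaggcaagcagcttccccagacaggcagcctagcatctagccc
Gnb1 promoter, chr4:155491111-155491360, forward strand: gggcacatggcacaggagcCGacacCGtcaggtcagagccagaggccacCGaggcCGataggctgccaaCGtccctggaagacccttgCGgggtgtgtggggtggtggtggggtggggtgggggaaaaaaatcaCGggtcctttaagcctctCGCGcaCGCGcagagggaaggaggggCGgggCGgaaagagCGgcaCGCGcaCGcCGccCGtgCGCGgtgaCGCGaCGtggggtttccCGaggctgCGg
The stretch held 26 CpGs at Gnb1, 2 at Gng13 and 0 at Cnga2.

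The RefSeq promoter table held 8 of the 10 genes, all but Omp and Gnal. Over 300 bases, with 50 after the start included, the observed over expected CpG ratio was 0.883 at Gnb1 and 0.934 at Adcy3, at the 80.2nd and 85.6th percentiles of 16433 protein-coding promoters. It was 0.0963 at Cnga2, 0.139 at Cnga4, 0.170 at Cngb1, 0.209 at Gng13, 0.219 at Stoml3 and 0.382 at Ano2, between the 9.84th and the 36.0th percentile. Thus 6 of 8 promoters were under 0.6, as were 49.6% of all. The 3 channel subunit genes were the lowest of the 8. The start used for Adcy3 lay 294 bp inside its GENCODE gene model, and that of Stoml3 54 bp. Ebf factors are known regulators of olfactory neuron genes, and their 10-base site is a palindrome, so both strands were read at once. A match was found in 0 of the 8 promoters, against 0.955% of all promoters of this length, which says only that these letters are not in this window.

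The TSSs of the 10 genes lay 4.67 to 82.9 kb from the midpoint of the nearest boundary. Their median was 45.9 kb, against 61.1 kb over all protein-coding genes (quartiles 27.5 and 111.0 kb). With the annotated transcript start of each gene that lay nearest to a boundary, the medians were closer, at 45.2 and 51.7 kb. Gng13 was nearest at 4.67 kb. Gnal stood at 19.3 kb, Gnb1 at 23.9 kb and Cngb1 at 30.9 kb. These are the outermost starts of each gene. Coding transcripts of Gnb1 began 23.9 to 60.0 kb from that boundary, and those of Cngb1 30.9 to 55.9 kb, each gene within 1 interval. The map does not show which starts these neurons use. Stoml3 stood at 41.2 kb, Adcy3 at 50.6 kb, Omp at 52.0 kb and Cnga2 at 54.3 kb. The farthest were Cnga4 at 67.1 kb and Ano2 at 82.9 kb, which alone lay beyond the median of all genes. Boundary positions are given in steps of 5 kb, so neighbours in this order that differ by less than that have none: Gnal and Gnb1, Adcy3 and Omp, and Omp and Cnga2.

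Only Gng13 had its TSS at a boundary, which here means inside the 5000 bp called or at most 10 kb beyond either edge. This is 1 of 10 genes, where 13.0% of all protein-coding genes were at a boundary, so the share was near the background. With a margin of 25 kb, 3 of the 10 were counted (25.0% of all genes), and with 50 kb, 7 were (44.0%). With no margin it was 0 (3.45%).

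**Figure D1:**
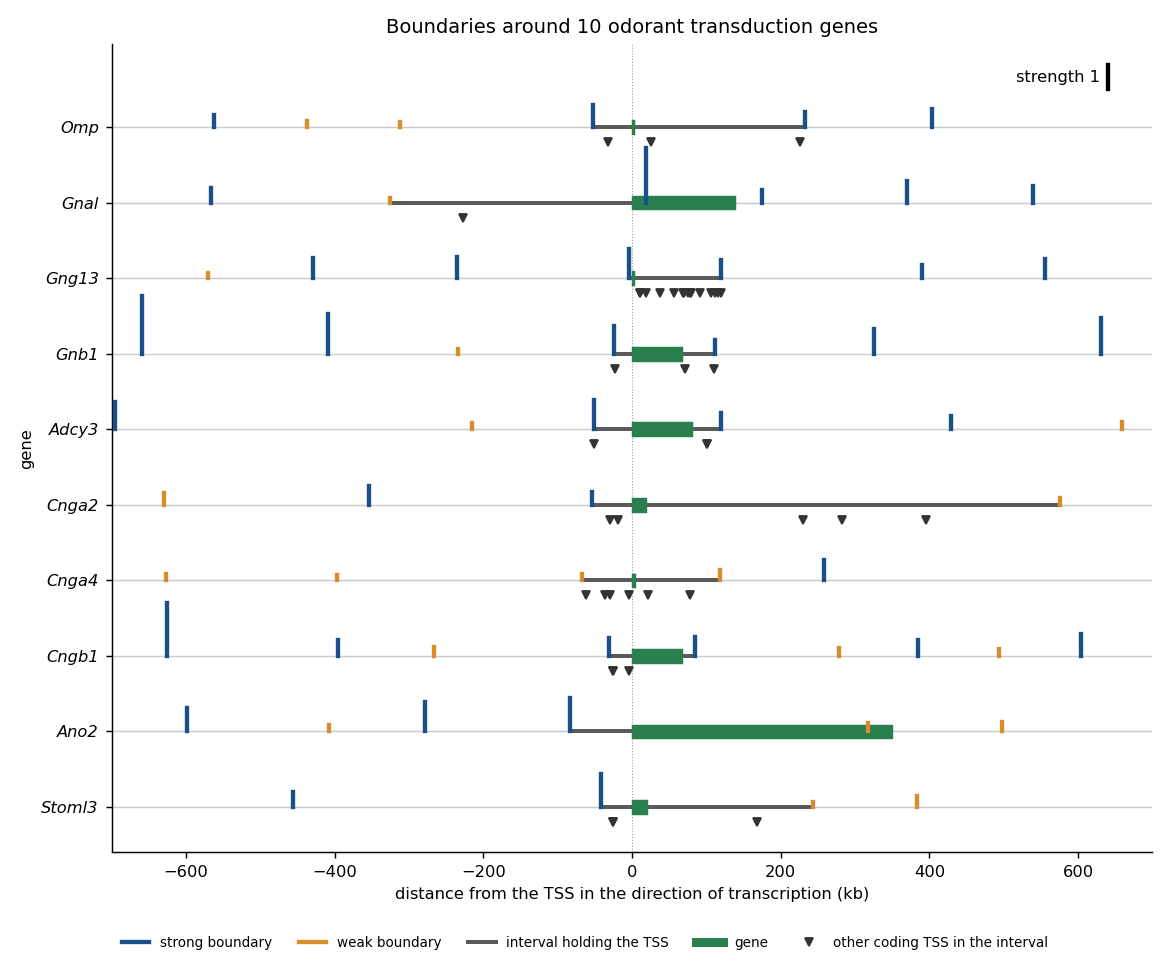
Each row is 1 gene, aligned at its TSS and read in its direction of transcription, and the x axis gives the distance from the TSS in kb. Vertical bars are boundaries, with a height that shows their strength, the dark line is the interval that holds the TSS, the green bar is the gene and triangles are other protein-coding TSSs in the interval. In 9 of 10 rows the boundary nearest to the TSS lies upstream of it.

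The nearest boundary lay upstream of the TSS in 9 of the 10 genes, all but Gnal, against 52.3% of protein-coding genes. The upstream boundary was also the stronger of the pair in 7 of 10, against 51.6% of genes. These counts were chosen after the positions were seen, so they are a description. The median share of the interval that lay upstream of the TSS was 19.5%, against 47.3% over all protein-coding genes. The nearest boundary was strong in 9 of 10, all but Cnga4, against 64.8% of genes. Both flanking boundaries were strong for 5 of 10 (Omp, Gng13, Gnb1, Adcy3 and Cngb1), against 39.4% of genes. For Cnga4 both were weak.

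**Figure D2:**
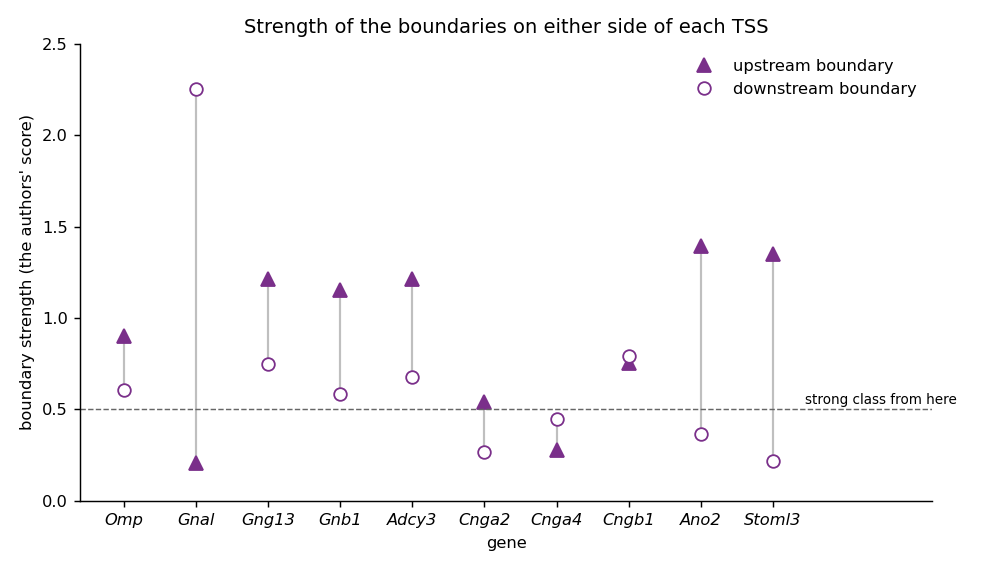
Strength of the boundary upstream (triangles) and downstream (circles) of each TSS, in units of the authors' score, with a dashed line where the strong class begins at 0.5. The downstream boundary of Gnal, at 2.26, is the highest point, and the upstream boundary is the higher one in 7 of the 10 genes.

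The intervals that hold the TSSs ran from 115 to 630 kb, with a median of 235 kb. The 7347 intervals had a median of 265 kb, and the intervals of all protein-coding TSSs had a median of 280 kb. Of the 10 genes, 5 lay in intervals shorter than 265 kb, against 45.0% of protein-coding genes. The intervals of Cngb1 (115 kb), Gng13 (125 kb) and Gnb1 (135 kb) were short, at the 3.03rd, 5.10th and 7.90th percentiles of all intervals. Adcy3 (170 kb) and Cnga4 (185 kb) followed. Omp and Stoml3 each lay in 285 kb, Gnal in 345 kb, Ano2 in 400 kb and Cnga2 in 630 kb, the last at the 89.7th percentile. A long interval covers more bases than a short one, and the middle base of all intervals lay in one of 405 kb. Counted by base, Ano2 stood at the 49.2nd percentile and only Cnga2, at the 71.2nd, was above the middle.

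**Figure D3:**
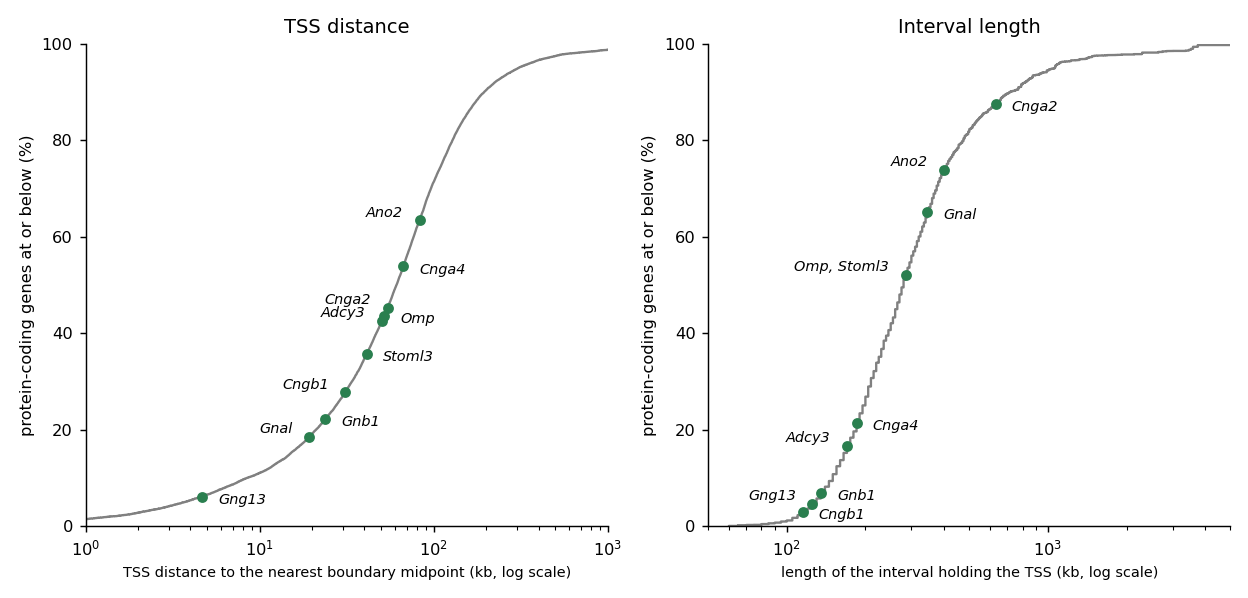
Cumulative share of all protein-coding genes (grey line, y axis in %) by TSS distance to the nearest boundary midpoint (left) and by length of the interval holding the TSS (right), both on a log scale in kb. Green points are the 10 genes, which reach from Gng13 at 4.67 kb to Ano2 at 82.9 kb on the left and from Cngb1 at 115 kb to Cnga2 at 630 kb on the right.

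Omp encodes the olfactory marker protein, an abundant cytosolic protein of mature olfactory sensory neurons that shapes the cyclic AMP response. The gene is 2.14 kb long and reads on the reverse strand of chromosome 7, from 98143359 to 98145502. It lay wholly inside Capn5, a calpain protease gene on the same strand (98121559 to 98178274), and overlapped none of its exons, so it is intronic there. Upstream, the boundary at 98195001 to 98200000 had a strength of 0.902, overlapped UTR sequence of B3gnt6 and lay 1.98 kb from that gene's TSS. The downstream one, at 97910001 to 97915000 with a strength of 0.606, lay 233 kb away, over coding sequence of Pak1. The interval of 285 kb held 4 protein-coding TSSs. Besides Omp they were Myo7a, a myosin gene needed for hearing and vision (25.98 kb downstream), Capn5 (32.8 kb upstream) and Gdpd4 (226 kb downstream).

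Gnal, the Golf alpha subunit gene, was parted by the strongest boundary found at any of the 10 genes. The gene spans chromosome 18, 67088216 to 67226792, on the forward strand, over 139 kb. The boundary, at 67105001 to 67110000, had a strength of 2.26, at the 98.4th percentile of all boundaries, and overlapped no exon of Gnal. It separated the starts of the 8 annotated Gnal transcripts into equal sets. The upstream set of 4 began between 67088216 and 67088335, 19.2 to 19.3 kb before the boundary. The downstream set of 4 began between 67132983 and 67133750, 25.5 to 26.2 kb after it. The annotation does not say which set these neurons use, and the map holds no RNA.

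The Gnal promoters therefore lay in different intervals. The upstream set shared 345 kb with Mc4r, a melanocortin receptor gene on the opposite strand 228 kb away. The far end of that interval was a weak boundary with a strength of 0.206, at the 1.70th percentile, over an exon of the long noncoding RNA gene AC133607.3. The downstream set lay in 155 kb, at the 14.6th percentile of intervals, closed by a boundary with a strength of 0.511. That interval also held the TSSs of Chmp1b, a gene of membrane remodelling that lies within Gnal, and Mppe1. With the downstream set as the TSS, a choice made after the positions were seen, the nearest boundary was upstream in 10 of 10 genes. The share over all protein-coding genes was 52.3%.

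**Figure D4:**
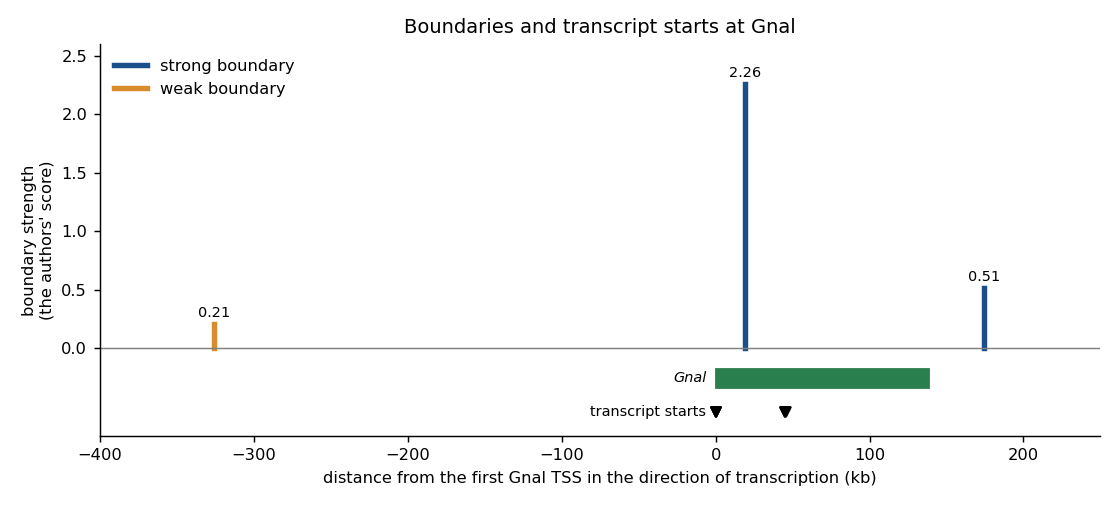
Boundaries around Gnal with their strength on the y axis (the authors' score) against distance from the first Gnal TSS in kb, above the gene (green bar) and the starts of its 8 transcripts (triangles, which overlap within each set of 4). The boundary of strength 2.26 lies between the sets of starts.

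A boundary between the starts of coding transcripts of 1 gene was found in 757 of 21670 protein-coding genes (3.49%), and that of Gnal ranked 8 among them by strength. A boundary lay somewhere in the gene body in 36.1% of 785 genes within 1.2-fold of Gnal's length. Of the 10 genes, Gnal and Ano2 had a boundary midpoint in the body, against 12.7% of all protein-coding genes. The other 8 lay whole in 1 interval.

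Gng13 encodes the gamma subunit that pairs with Golf. It occupies chromosome 17 from 25717171 to 25719406, forward strand, and its last 0.481 kb overlap the end of Chtf18 on the opposite strand. The boundary upstream, at 25710001 to 25715000, had a strength of 1.21 (83.3rd percentile) and overlapped no annotated gene. No other protein-coding TSS lay in that boundary's window. On the far side the boundary at 25835001 to 25840000, with a strength of 0.749, lay 120 kb from the TSS, and 5 protein-coding TSSs were in its window, among them those of Stub1, Rhbdl1 and Rhot2. It overlapped Rhbdl1, Rhot2, Gm20683 and the long noncoding RNA gene Gm26694. Between them stood the most gene-dense interval of the 10, with 16 protein-coding TSSs in 125 kb, or 12.8 per 100 kb. Over all intervals, which include those without a protein-coding TSS, the density was 0.844 per 100 kb. The interval of a protein-coding gene held a median of 6 such TSSs, and 16 stood at the 86.1st percentile of these genes. Of the other 15 TSSs at Gng13, the nearest were those of Chtf18 (10.2 kb), Rpusd1 (10.5 kb), Mslnl (18.9 kb), Msln (37.2 kb) and Narfl (56.6 kb). All 15 lay downstream of the Gng13 TSS.

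Gnb1 encodes a beta subunit shared by many G proteins. It is at chromosome 4, 155491361 to 155559269, on the forward strand. The boundary 23.9 kb upstream, at 155465001 to 155470000, had a strength of 1.15 and lay over exons of Cfap74 and Tmem52, with the Tmem52 TSS 1.61 kb from its midpoint. The boundary 111 kb downstream, at 155600001 to 155605000 with a strength of 0.587, lay 1.08 kb from the TSS of Slc35e2. Both flanks of Gnb1 were thus at promoters of its neighbours. The interval of 135 kb held 4 TSSs, those of Gnb1, Tmem52, Nadk (an NAD kinase gene, 71.0 kb downstream) and Slc35e2, all on the same strand.

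Adcy3 is at chromosome 12, 4133103 to 4213525, on the forward strand. The boundary before it, at 4080001 to 4085000 with a strength of 1.22 (83.4th percentile), had the TSS of Dnajc27 0.0825 kb from its midpoint. The one behind it, at 4250001 to 4255000 with a strength of 0.675, lay 119 kb away over coding sequence of Ncoa1, a nuclear receptor coactivator gene. The interval of 170 kb held 4 TSSs, with Dnajc27 50.5 kb upstream and Ptrhd1 and Cenpo 101 kb downstream. The gene model of Cenpo, a centromere protein gene on the opposite strand, overlapped the last 17.5 kb of Adcy3.

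The 3 channel genes differed widely in their intervals. Cnga2, the main subunit, is at chromosome X, 71991849 to 72010218, on the forward strand, in the longest interval of the 10. Its upstream boundary, at 71935001 to 71940000, was just strong at 0.542 and lay over coding sequence of Gm1141. The far end, at 72565001 to 72570000, was weak at 0.269 and lay in an intron of Gabra3, a GABA receptor gene, 576 kb away. The interval held 6 TSSs, among them Fate1 (18.9 kb upstream), Prrg3 (29.2 kb upstream), Magea4 (230 kb downstream), Gabre (283 kb downstream) and Magea10 (395 kb downstream). Only 2 boundaries lay within 500 kb of the Cnga2 TSS, against a median of 4 over all protein-coding genes and 3 over X-linked ones. X-linked protein-coding TSSs lay in intervals with a median of 410 kb, against 275 kb on autosomes, and at 8.76% of them a boundary was counted, against 13.2%.

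Cnga4 encodes a modulatory subunit needed for fast adaptation. It is at chromosome 7, 105404568 to 105408742, on the forward strand, and shared its interval with odorant receptor genes. Its upstream boundary, at 105335001 to 105340000, was weak at 0.277 (18.2nd percentile), overlapped coding sequence of Olfr691 and had the TSSs of Olfr690 and Olfr691 in its window. The opposite boundary, at 105520001 to 105525000, was weak at 0.448 and overlapped no gene. The interval of 185 kb held 7 TSSs, in order of distance from Cnga4 those of Fam160a2 (4.51 kb), Cckbr, a cholecystokinin receptor gene (21.2 kb), Gm5901 (29.5 kb), Olfr692 (36.3 kb), Olfr691 (62.3 kb) and Cavin3 (77.7 kb). Of 20404 protein-coding genes not named Olfr, 1.69% shared an interval with an odorant receptor TSS. Among the 10 genes only Cnga4 did. The nearest receptor TSS to any other was 1585 kb away, from Omp. Chromosomes 12 and 18, which hold Adcy3 and Gnal, had no protein-coding gene named Olfr in the annotation used.

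Weak boundaries alone parted Cnga4 from many more receptor genes. Between strong boundaries alone its interval was 1235 kb long with 52 protein-coding TSSs, of which 34 were odorant receptor genes. Its nearest strong boundary was 258 kb downstream.

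Cngb1 encodes the channel subunit that rod photoreceptors also use. The gene reads on the reverse strand of chromosome 8, from 95239045 to 95306585, in the shortest interval of the 10. Its upstream boundary, at 95335001 to 95340000 with a strength of 0.752, lay over exons of Usb1, an RNA processing gene, and had the TSSs of Zfp319 and Usb1 in its window. Behind the gene the boundary at 95220001 to 95225000 reached 0.792 and had no gene over it. The interval of 115 kb held 4 TSSs, with Tepp 3.98 kb upstream and Zfp319 and Usb1 25.4 and 25.7 kb upstream. There were 7 boundaries within 500 kb of the Cngb1 TSS, at the 99.5th percentile of protein-coding genes. The other 8 autosomal genes had 4 or 5.

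Ano2, the chloride channel gene, is at chromosome 6, 125690419 to 126040126, on the forward strand, and is the longest of the 10 at 350 kb. Its upstream boundary, at 125605001 to 125610000 with a strength of 1.39 (88.5th percentile), lay over coding sequence of Vwf, the gene of the clotting protein von Willebrand factor. The next one, at 126005001 to 126010000, was weak at 0.364 and lay in an intron of Ano2 itself, 317 kb into the gene, so 90.7% of the gene preceded it. A boundary in the body was found in 58.0% of 276 genes within 1.2-fold of its length. The interval of 400 kb held no other protein-coding TSS, which is so for 8.72% of protein-coding genes. The last 32.6 kb of the gene lay in the next interval, of 180 kb, with the TSS of the neurotrophin gene Ntf3. Between strong boundaries alone the Ano2 interval was 865 kb long.

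Stoml3 encodes a stomatin-like membrane protein of olfactory cilia. It is at chromosome 3, 53488653 to 53508502, on the forward strand. Its upstream boundary, at 53445001 to 53450000, had a strength of 1.35 (87.5th percentile) and lay over UTR sequence of Nhlrc3. Past the gene the boundary at 53730001 to 53735000 was among the weakest of the list at 0.219 (5.02nd percentile) and lay over an exon of a long noncoding RNA gene, Gm30735. The interval of 285 kb held 4 TSSs, with Proser1 and Nhlrc3 25.0 and 25.3 kb upstream and Frem2, an extracellular matrix protein gene, 169 kb downstream. Between strong boundaries alone it grew to 1230 kb with 8 TSSs.

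The 20 flanking boundaries, each next to 1 gene only, had a median strength of 0.712, against 0.563 over all boundaries. Flanks of all protein-coding TSSs had medians of 0.676 upstream and 0.659 downstream, against 1.03 and 0.596 for the 10 genes. Of the 20, 14 were strong, as were 4052 of all 7367 boundaries. Of the 20, 15 overlapped a protein-coding gene, against 46.1% of all boundaries, and 9 had a protein-coding TSS in their window, against 29.1%. Since the boundaries were picked for lying next to genes, these shares are a description. Of 42 other protein-coding genes that shared the 10 intervals, 22 were on the strand of the transduction gene. The share over all protein-coding genes was not computed, so this count is a description only.

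CTCF is a DNA-binding protein that holds many boundaries, and its motif has a direction. A match to the 12-base CTCF core motif lay in the windows of 4 of the 20 flanking boundaries, against 23.9% of all boundaries and 10.7% of all 25 kb stretches of the genome. The 4 windows held 5 matches, on either strand. All 5 lay 2.85 to 9.31 kb from the boundary midpoint, in the margin outside the 5000 bp called. All matches but that at Gnal are shown with 10 bases on each side, 5' to 3' on GRCm38, with the core in capitals. They show which windows hold a match and how it points.
Stoml3 downstream boundary, first, chr3:53735339-53735370, forward strand: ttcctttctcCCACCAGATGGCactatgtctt
Stoml3 downstream boundary, second, chr3:53740479-53740510, forward strand: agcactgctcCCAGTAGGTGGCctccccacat
Cnga4 downstream boundary, chr7:105515365-105515396, reverse strand: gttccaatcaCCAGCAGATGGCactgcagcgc
Cngb1 upstream boundary, chr8:95346799-95346830, forward strand: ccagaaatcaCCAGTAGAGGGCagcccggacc
The Cnga4 match pointed into the interval of the gene. The Stoml3 and Cngb1 matches pointed out of the interval of their gene. That at the boundary inside Gnal lay 8.61 kb past the boundary midpoint. It pointed out of the interval of the upstream set of Gnal starts and into that of the downstream set. For Gng13, Omp, Gnb1, Adcy3, Cnga2 and Ano2 the windows of both flanks held no match, which says only that these letters are not there.

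Other genes of the cascade were taken from a list of 17 that serve receptor transport, calcium and kinase feedback, cyclic AMP breakdown and ion transport. Of these, 3 were at a boundary (17.6%, against 13.0% of all protein-coding genes), Calm2 and Calm3, which encode calmodulin, and Grk2, a receptor kinase gene. Their TSSs lay 0.565, 1.61 and 11.3 kb from the midpoint, and the strengths were 0.277, 0.648 and 0.275. The median TSS distance of the 17 was 40.5 kb and their median interval 245 kb. Both flanks were strong for 5 of 17 (29.4%), below the 39.4% of all protein-coding genes.

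Paralogues of the 10 genes, 55 members of the same families, had a median TSS distance of 64.0 kb and a median interval of 290 kb. Both flanks were strong for 27 of 55 (49.1%), a share close to the 5 of 10. At a boundary were 4 of 55 (7.27%, below the 13.0% of all protein-coding genes), Gnao1 (2.47 kb), Gnai3 (6.35 kb), Gnb3 (7.78 kb, the strongest at 0.986) and Ano7 (11.4 kb). Gng13 was nearer to a boundary than each of its 11 gamma paralogues, which lay 22.4 to 201 kb away. None of them had a stronger nearest boundary, and 1 lay in a shorter interval. Gnb1 had a shorter interval than all 4 beta paralogues. Of 9 cyclase paralogues, 3 lay nearer to a boundary than Adcy3 and 1 lay in a shorter interval. Cngb1 and Cnga4 lay in shorter intervals than Cnga1, Cnga3 and Cngb3, whose median was 525 kb, while Cnga2 lay in a longer one than 2 of these 3. All 3 of those had a stronger nearest boundary than each olfactory channel gene. Ano2 went the other way, since 8 of 9 anoctamin paralogues lay nearer to a boundary and 7 of 9 in a shorter interval. Among 15 alpha paralogues 2 lay nearer to a boundary than Gnal, and Gnai2 and Gnat1, which share a boundary of strength 2.57, had a stronger one. Of the 15, 8 lay in a shorter interval than Gnal. Of 4 stomatin paralogues 1 lay nearer than Stoml3, 2 lay in a shorter interval, and none had a stronger nearest boundary.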

How the data were processed

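In situ Hi-C of 2 biological replicates was combined by the authors into 1 contact matrix on GRCm38, and boundaries were called from it, per the series design text. The deposited file lists each boundary's position, class and strength, which is a score. Its scale, the boundary caller, its window and the aligner were not given in the sources used here. The score was used only within this list. Genes came from GENCODE M21 and sequence from RefSeq's GRCm38.p6 genome, which is of another strain than the mice. TSS distance ran to the boundary midpoint. Percentiles count ties by their midpoint. The CTCF core allowed alternative bases and was read on both strands of each boundary and 10 kb beyond each edge. Placement was done in Python 3.11.15 with pandas 2.3.3 and checked on simulated data. With 1 pooled list, no test was made and depth is unknown. Genes named are the 10, the protein-coding genes in their intervals (all up to 6, otherwise the nearest 5), genes over their flanks, and listed genes at a boundary or at the strongest one; window and transcript genes such as Olfr690 were added after their values were seen. For 1 gene that the rule names, the result is not reported here. The members, lists and alternatives were chosen with earlier results of these data known.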

Additional observations from a re-analysis of the deposited data

How the results depend on the processing

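The replicates are merged in the list, so none could be left out. No paired analysis was possible because there is 1 group and its replicates are pooled. With the strong boundaries alone the median TSS distance was again 45.9 kb, while that of all protein-coding genes rose from 61.1 to 102 kb. The unchanged median follows from the strong nearest boundary of 9 of the 10 genes, so it is no separate result. The median interval grew to 435 kb, against 480 kb over protein-coding genes. With the 1842 strongest boundaries the medians were 66.8 and 1442.5 kb, against 281 and 1375 kb. The autosomal members alone had a median interval of 185 kb, and a TSS of Gnal in its downstream set, chosen after the data were seen, gave 177.5 kb. The number of genes at a boundary was 0, 3 and 7 with 0, 25 and 50 kb on each side, and 1 under the other settings tried. Under those other settings the share of the background genes ran from 3.97% to 17.3%. Leaving out each gene in turn gave median distances of 41.2 to 50.6 kb and median intervals of 185 to 285 kb, so the order of the interval medians of these genes and of all genes (280 kb) is not stable. The nearest boundary was upstream in 8 of 10 with strong boundaries and in 6 of 10 with those 1842. The shares of all protein-coding genes were 51.9% and 51.5%, so the 6 of 10 was near its background. Under strong boundaries alone 9 of 10 TSS distances and 5 of 10 interval lengths moved by 5 kb or less. Merging boundaries under 100 kb apart changed none of the 10 distances or lengths by more than that.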
